A study of Mus musculus with 6 samples.

Results

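H3K27me3 domains of neural stem cells (NSCs) that had no H3K27me3 peak in the neurons made from those cells are described here. H3K27me3 is the histone mark laid down by Polycomb repressive complex 2, which keeps developmental genes silent. It often lies over CpG-rich promoters, and in stem cells such promoters can carry H3K4me3, the mark of active or poised start sites, at the same time. As cells differentiate into neurons, some neuronal genes are known to lose H3K27me3 while keeping or gaining H3K4me3. The members were chosen by their measured width, their ratio of reads and the lack of a neuronal call: they are the peaks of the NSC H3K27me3 list at least 5000 and under 20000 bp wide, with at least 1.5 times as many immunoprecipitated reads as input reads and no neuronal H3K27me3 peak overlapping by even 1 bp. There were 1605 such NSC-only domains among the 26539 NSC H3K27me3 peaks, and together they covered 10.8 Mb.

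The study compared neurons with NSCs by chromatin immunoprecipitation and sequencing. The neurons were taken at day 11 of differentiation from the NSCs and were sorted by flow cytometry as positive for RedStar, a fluorescent protein driven by the promoter of Tau (Mapt). The NSCs were at day 0, had been derived from mouse embryonic stem cells of the C57BL/6 strain, were RedStar negative and were kept at passages 25 to 30 with FGF2 and EGF. Each cell type had 1 library per antibody and 1 input, so no difference below has a replicate check and none was tested. The sort selects neurons by the promoter of 1 gene.

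Reads inside called peaks numbered 3161819 for H3K27me3 in neurons, 3272324 for H3K27me3 in NSCs, 983266 for H3K4me3 in neurons and 3623654 for H3K4me3 in NSCs. The neuronal H3K4me3 list held 14846 peaks and the NSC list 30416. Such counts also depend on sequencing depth, which is unknown. At the 11424 start sites with H3K4me3 in both, the authors' fold over input had medians of 4.64 in neurons and 9.76 in NSCs. By that fold the neuronal H3K4me3 library was the less enriched, and H3K4me3 comparisons below stand beside the same value over all genes or peaks. As a check of the cell labels, an H3K4me3 peak lay at the start site of 23 of 34 listed genes of the neuronal cytoskeleton and RNA binding in neurons and of 25 of 34 in NSCs. For listed neural stem cell genes the counts were 34 of 40 in neurons and 35 of 40 in NSCs. Of the neuronal list, Dcx and Stmn3 had a peak in neurons alone and 4 genes had one in NSCs alone. Of the stem cell list, Pdgfra and Sox1 had a peak in neurons alone and 3 genes had one in NSCs alone. Marks at start sites therefore did not separate the cell types by these lists. In neurons, 13 of 24 listed astrocyte genes and 4 of 10 listed oligodendrocyte genes had H3K4me3, against 19 of 24 and 4 of 10 in NSCs.

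The limits were applied in steps. Of 26539 NSC peaks, 12513 met the width limits, and 9256 of those also met the ratio limit. Of these 9256, 1605 had no neuronal peak, which is 17.3%, whereas 33.7% of NSC peaks of any width had none. The other 7651 peaks, called shared domains below, met the same width and ratio limits and overlapped at least 1 neuronal peak. By the mirrored rule, 1142 neuronal peaks had no NSC peak, which is 15.2% of the neuronal peaks within the limits. A missing neuronal peak means that no peak was called. Neuronal reads outside called peaks were not analysed here.

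The NSC-only domains stood low within the limits. Their width had a median of 6200 bp, with quartiles of 5400 and 7400 bp and a highest value of 18200 bp, against a median of 7800 bp in shared domains. They held 52 to 486 immunoprecipitated reads, with a median of 93, over a median of 50 input reads. Per kb of domain, the medians were 14.8 immunoprecipitated reads and 8.17 input reads, against 17.7 and 8.65 in shared domains. The ratio of reads had a median of 1.78 in NSC-only domains and 2.02 in shared domains. A false discovery rate (FDR, the authors' value) under 1e-20 was reached by 414 of the 1605, or 25.8%, against 64.1% of shared domains. These values belong to the contrast that chose the members and are given as a description.

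The NSC-only share was lower among wider and stronger domains. It was 29.9% of domains 5000 to below 6000 bp wide, 21.7% at 6000 to below 8000 bp, 9.78% at 8000 to below 12000 bp and 3.07% from 12000 bp. By ratio it was 23.7% from 1.5 to below 2, 12.2% from 2 to below 2.5, 8.82% from 2.5 to below 3 and 6.77% from 3. Width and ratio belong to the rule, and a wider domain has more room to overlap a neuronal peak. These shares are therefore a description only. The limits cut through a dense range. Exactly 5000 bp was the width of 184 members, and 201 peaks of 4800 bp would otherwise have qualified. At the ratio limit, 339 members lay between 1.5 and 1.6, and 303 peaks between 1.4 and 1.5 met the other limits. Members just inside the ratio limit included a domain of 54 reads over 36 input reads on chromosome 11 (mm9, 9363800 to 9369199), and the nearest peak outside had 151 over 101 on chromosome 5 (102855600 to 102865599). Of the peaks that met all other limits, 1 was too wide, at 20400 bp with 281 reads over 178 input reads. End to end contact was seen too: 16 members met a neuronal peak end to end, while 26 shared domains owed their place to an overlap of 200 bp.

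Neuronal H3K27me3 was often close. The nearest neuronal peak lay at a median of 10801 bp, with quartiles of 3601 and 35801 bp. It was within 1000 bp for 91 members, within 5000 bp for 503 (31.3%) and within 10000 bp for 762 (47.5%). Within 10000 bp, 192 members had neuronal peaks on both sides, 570 on 1 side and 843 (52.5%) on neither. The nearest neuronal peak was narrower than the members, with a median width of 2800 bp, and held a median of 48 reads. The 843 remote domains held a start site in 6.64% and the other 762 in 5.64%, so that share differed little with nearness to neuronal H3K27me3. Overlap with H3K4me3, in the same order, was 9.25% and 6.69% in NSCs and 3.91% and 2.89% in neurons.

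Most NSC-only domains lay away from gene starts. A start site was taken from the deposited gene tables, which together name 18778 Ensembl genes, 4178 of them without a symbol, and which lean towards genes near peaks. Of the 1605 domains, 99 held a start site, or 6.17% (exact 95% interval 5.04 to 7.46, for counting error only, as in all intervals below). Among all NSC H3K27me3 peaks the share was 9.16%, and among shared domains it was 17.4% (16.6 to 18.3). The distance to the nearest start site had a median of 40751 bp, with quartiles of 12832 and 95726 bp, against a median of 22719 bp in shared domains. A start site lay within 10000 bp of 21.7% of NSC-only domains and 34.9% of shared ones, and within 50000 bp of 56.0% and 67.7%.

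The order was the same within classes of width. At 5000 to below 6000 bp, 4.78% of NSC-only domains held a start site, against 9.71% of shared domains. At 6000 to below 8000 bp the shares were 5.66% and 11.9%, at 8000 to below 12000 bp 9.64% and 20.0%, and from 12000 bp 14.6% (7 of 48 domains) and 29.8%. By ratio the same order held, with 3.77% against 9.92% from 1.5 to below 2, 8.44% against 16.6% from 2 to below 2.5, 18 of 88 against 246 of 910 from 2.5 to below 3, and 20.0% against 44.9% from 3. Width and ratio were not held fixed together.

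**Figure D1:**
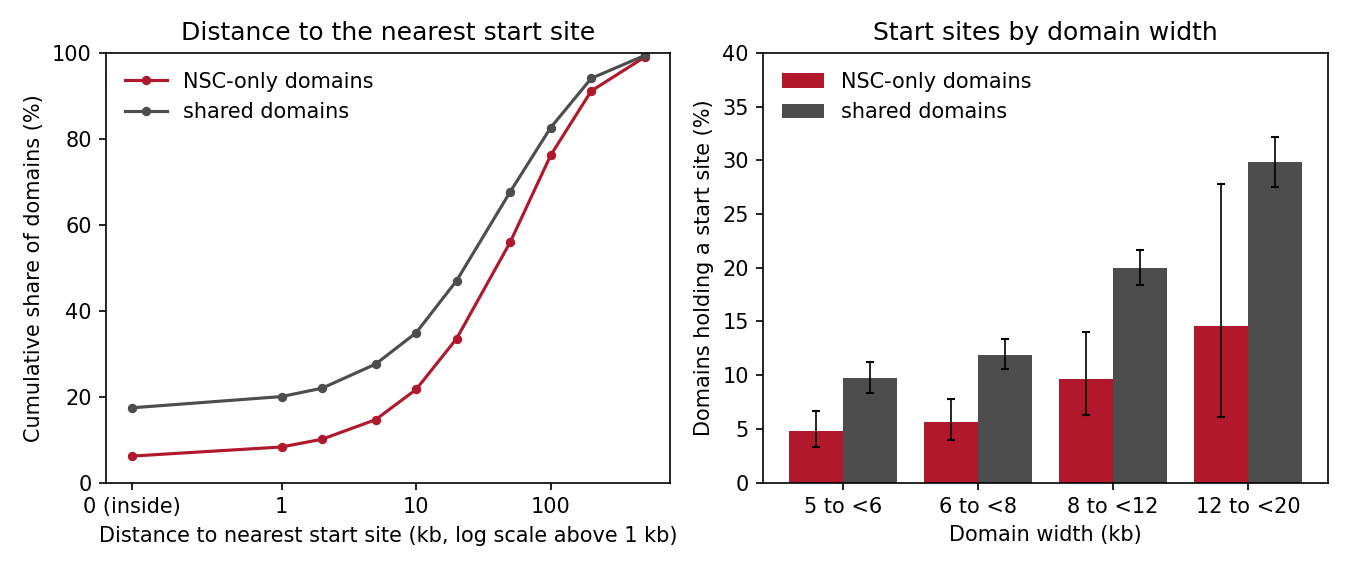
Left, cumulative share of domains (%) by distance to the nearest start site (kb, log scale above 1 kb) for NSC-only and shared domains. Right, share of domains holding a start site (%) by domain width (kb), with exact 95% binomial intervals. NSC-only domains lay below shared domains at each distance and in each of the 4 width classes, 6.17% against 17.4% holding a start site in all.

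The 99 domains held 106 start sites, 76 of them of genes with a symbol, and 7 domains held more than 1. This was 0.564% of the 18778 start sites in the tables, while shared domains held 1541, or 8.21%. Among the 106, the start sites fell into a part with H3K4me3 and a larger part without. Both parts were mixed in gene type. Genes with the mark included neuronal and developmental regulators, but also the copper transporter gene Atp7b and the heparanase gene Hpse. Genes without it included the caudal homeobox factor gene Cdx1. Also without it were tissue-restricted families such as olfactory and vomeronasal receptors (Olfr1506, Olfr765, Vmn1r53, Vmn1r87), interferon alpha (Ifna14), the epidermal keratin Krt2, the resistin gene Retn and the sperm hyaluronidase gene Spam1. Paralogs of such families share sequence, and how the authors treated reads with several matches is not given in the sources used here.

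Promoters of some genes of each kind are shown for their CG dinucleotides, and these examples do not split cleanly by the mark. They were chosen after the values were seen, and come from RefSeq on GRCm38.p6, another build than the mm9 of the peaks, so a RefSeq start may differ from the Ensembl start in the deposited tables. Each line gives the 250 bases before the start, with every CG dinucleotide in capitals. The first 4 genes had H3K4me3 in neurons (Stmn3), or in both cell types (Tubb3, Bcl11b, Helt), and the last 3 had it in neither.
Tubb3, chr8:123411303-123411552, plus strand: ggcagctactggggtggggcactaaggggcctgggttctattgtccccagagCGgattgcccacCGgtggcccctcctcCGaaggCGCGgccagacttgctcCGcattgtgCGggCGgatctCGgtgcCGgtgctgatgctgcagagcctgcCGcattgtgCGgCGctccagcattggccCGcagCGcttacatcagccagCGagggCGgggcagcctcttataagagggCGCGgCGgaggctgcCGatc
Stmn3, chr2:181314501-181314750, minus strand: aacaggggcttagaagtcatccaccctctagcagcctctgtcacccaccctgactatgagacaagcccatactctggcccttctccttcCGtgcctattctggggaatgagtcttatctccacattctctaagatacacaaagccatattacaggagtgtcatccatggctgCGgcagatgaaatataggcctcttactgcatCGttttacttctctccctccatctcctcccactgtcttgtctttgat
Bcl11b, chr12:108003415-108003664, minus strand: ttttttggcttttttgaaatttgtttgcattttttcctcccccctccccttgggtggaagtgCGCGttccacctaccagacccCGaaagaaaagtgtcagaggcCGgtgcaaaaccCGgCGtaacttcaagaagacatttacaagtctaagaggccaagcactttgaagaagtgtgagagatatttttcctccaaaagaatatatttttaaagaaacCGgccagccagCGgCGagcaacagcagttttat
Helt, chr8:46294672-46294921, minus strand: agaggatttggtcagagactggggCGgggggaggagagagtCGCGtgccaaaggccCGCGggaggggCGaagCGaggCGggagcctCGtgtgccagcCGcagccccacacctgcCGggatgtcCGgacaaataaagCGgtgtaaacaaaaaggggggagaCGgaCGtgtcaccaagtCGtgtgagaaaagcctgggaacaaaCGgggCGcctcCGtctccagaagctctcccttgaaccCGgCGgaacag
Cyp2s1, chr7:25816526-25816775, minus strand: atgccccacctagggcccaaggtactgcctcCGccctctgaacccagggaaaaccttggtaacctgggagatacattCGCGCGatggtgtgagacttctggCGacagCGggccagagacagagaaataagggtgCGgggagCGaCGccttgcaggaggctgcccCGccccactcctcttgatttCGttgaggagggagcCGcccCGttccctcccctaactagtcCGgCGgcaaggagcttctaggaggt
Krt2, chr15:101818170-101818419, minus strand: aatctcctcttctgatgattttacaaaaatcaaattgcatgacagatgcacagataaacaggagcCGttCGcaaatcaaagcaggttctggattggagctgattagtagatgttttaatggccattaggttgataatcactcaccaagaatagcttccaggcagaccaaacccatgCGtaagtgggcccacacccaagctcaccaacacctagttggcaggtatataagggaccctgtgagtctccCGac
Olfr1506, chr2:90224472-90224721, minus strand: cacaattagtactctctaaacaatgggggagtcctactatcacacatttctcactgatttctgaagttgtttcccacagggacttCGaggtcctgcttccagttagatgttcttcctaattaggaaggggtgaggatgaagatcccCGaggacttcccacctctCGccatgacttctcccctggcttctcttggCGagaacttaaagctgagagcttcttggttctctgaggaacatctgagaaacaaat

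CG dinucleotides numbered 21 in the 250 bases shown of Tubb3, 21 in Helt, 9 in Bcl11b and 3 in Stmn3, against 15 in Cyp2s1, 4 in Krt2 and 4 in Olfr1506. Stmn3, with H3K4me3, and Cyp2s1, without it, went against the general order. Over the RefSeq window of 250 bases before to 50 after the start, 53 of the 75 distinct symbols had an entry and 44 had exactly 1. The 44 windows had a median of 9.5 CGs, against 13 for 645 genes with a start in shared domains and 21 for 8014 genes of the tables. The observed over expected CG ratio, which allows for base composition, had medians of 0.530, 0.529 and 0.761 in that order, and 45.5%, 44.2% and 70.9% of the windows reached 0.6, so by this measure NSC-only and shared domains were close. By H3K4me3 state, the medians were 24.5 CGs at the 14 windows marked in both cell types, 11 at 8 windows marked in NSCs alone and 4 at 21 windows marked in neither. All 14 windows of the first group had a ratio of at least 0.6, as did 4 of 8 of the second and 2 of 21 of the third. Among genes of the tables as a whole the medians were 23 CGs at windows with H3K4me3 in either cell type and 5 at windows with it in neither. The motif TATAAA, searched on both strands and so also read as TTTATA, occurred in 5 of the 44 windows (11.4%), against 14.7% of the 645 windows of shared domains, 7.94% of the 8014 genes of the tables and 14.8% of all 22862 RefSeq promoters.

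H3K4me3 was rare in the domains as a whole. A neuronal H3K4me3 peak overlapped 55 of the 1605 NSC-only domains, or 3.43% (2.59 to 4.44), against 8.18% of shared domains and 6.18% of all NSC H3K27me3 peaks. An NSC H3K4me3 peak overlapped 129, or 8.04% (6.75 to 9.48), against 15.6% of shared domains and 11.0% of all. The mark was called in neurons alone in 13 domains, in NSCs alone in 87, in both in 42 and in neither in 1463 (91.2%). These counts make no allowance for the longer NSC H3K4me3 list, of 30416 peaks against 14846 in neurons. Among the 99 domains with a start site, 31 overlapped H3K4me3 in neurons and 41 in NSCs. Among the 1506 without one, 24 did in neurons and 88 in NSCs.

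At the start sites themselves, H3K4me3 was scored as any listed peak within 1000 bp. Of the 106 start sites, 31 had it in neurons, or 29.2% (20.8 to 38.9), and 40 in NSCs, or 37.7% (28.5 to 47.7). Over all 18778 start sites the shares were 61.7% in neurons and 70.4% in NSCs, and the intervals of the NSC-only shares lay below both. Shared domains had it at 21.5% of 1541 start sites in neurons and at 41.2% in NSCs, and both values lay inside the intervals of the NSC-only shares. The mark lay in both cell types at 27 of the 106 start sites, in neurons alone at 4 (3.77%), in NSCs alone at 13 (12.3%) and in neither at 62 (58.5%). The shares over all genes were 0.831% in neurons alone and 9.55% in NSCs alone.

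Start sites in NSC-only domains that had H3K4me3 in NSCs mostly had it in neurons too. Of the 40, 13 had no neuronal peak, or 32.5% (18.6 to 49.1). In shared domains this was 337 of 635, or 53.1% (49.1 to 57.0), and over all genes 13.6%. With the deposited gene tables in place of the peak lists, the count was 15 of 30 in NSC-only domains (31.3% to 68.7%), against 219 of 395 in shared domains, so the gap between the kinds of domain depended on the rule. Some calls of absence were narrow misses: a neuronal peak lay 1257 bp from the start of Clec11a, 1409 bp from that of an unnamed gene (ENSMUSG00000087386) and 2017 bp from that of C2cd4b.

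**Figure D2:**
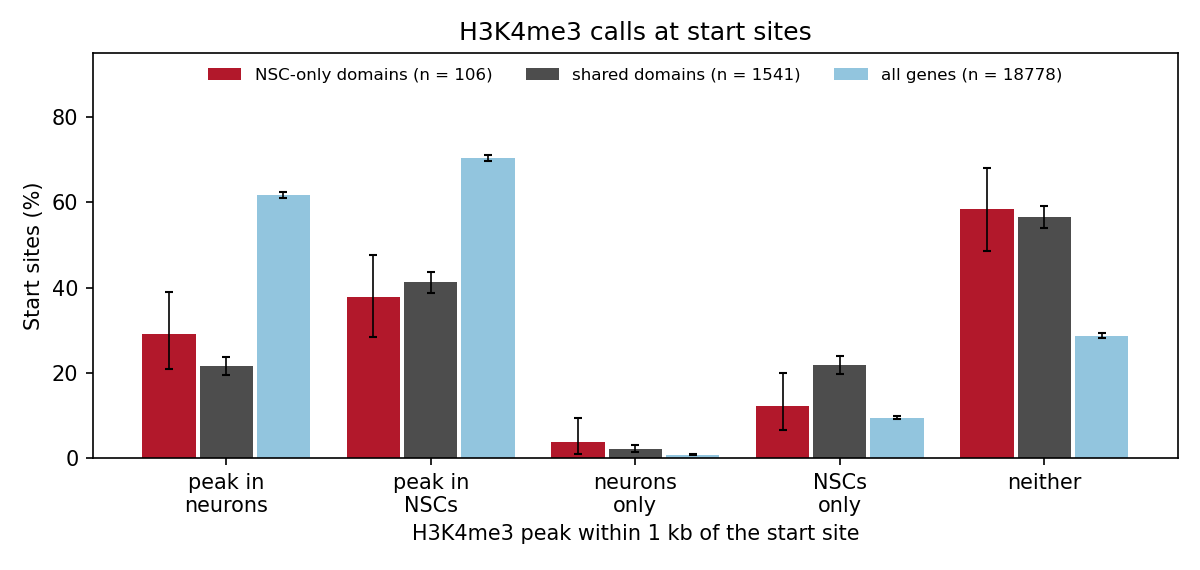
Share of start sites (%) with an H3K4me3 peak within 1 kb, in NSC-only domains (106), shared domains (1541) and all genes (18778), with exact 95% binomial intervals. The bars for NSCs alone stood at 12.3%, 21.9% and 9.55% in that order, and those for neurons alone at 3.77%, 2.21% and 0.831%.

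Where both cell types had the mark, the neuronal peak was about as often wider as narrower in NSC-only domains. Over all 11424 start sites marked in both, the neuronal H3K4me3 peak was wider than the NSC peak at 11.1%, in the less enriched neuronal library. In shared domains it was wider at 57 of 298, or 19.1% (14.8 to 24.1). In NSC-only domains it was wider at 13 of 27, or 48.1% (28.7 to 68.1), narrower at 11 and of equal width at 3. Counted by distinct pairs of peaks, since neighbouring start sites share some, it was wider in 12 of 25, or 48.0%. Widths at the 27 start sites had medians of 2200 bp in neurons and 1800 bp in NSCs, against 1400 and 1800 bp in shared domains. Neuronal reads exceeded NSC reads at 6 of the 27 (22.2%), at 6.04% of the 298 and at 0.674% of all. Of the domains on chromosome 1, where input reads were high, Nrp2, Erbb4 and Eya1 counted among the 13, and without that chromosome the share was 39.1% (9 of 23). When only neuronal H3K27me3 peaks with FDR under 1e-20 counted as overlapping, which makes 5807 domains NSC-only, the share was 39 of 132, or 29.5% (21.9 to 38.1).

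**Figure D3:**
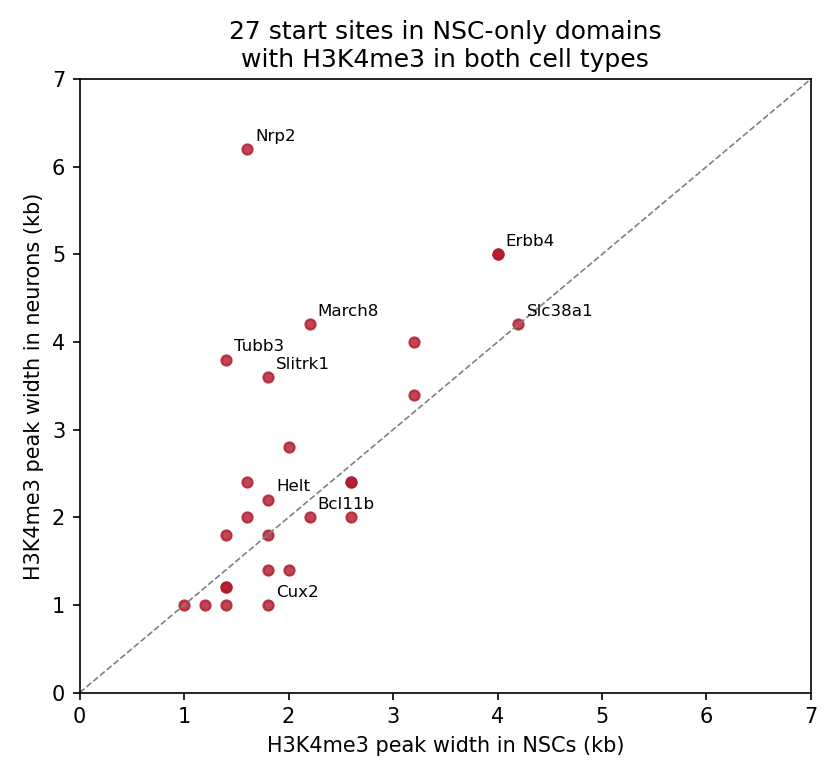
Width of the H3K4me3 peak (kb) in neurons (vertical axis) against NSCs (horizontal axis) at the 27 start sites in NSC-only domains marked in both; the dashed line is equal width, and darker points are start sites that share a value. Nrp2, Tubb3 and March8 lay farthest above the line, and 13 points lay above it.

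Neuronal genes made up part of the marked start sites. Tubb3, the neuronal beta-tubulin used as a marker of young neurons, lay in a domain of 5600 bp on chromosome 8 (125933000 to 125938599) with 107 H3K27me3 reads over 51 input reads, 81201 bp from the nearest neuronal H3K27me3 peak. Its H3K4me3 peak was 3800 bp wide with 140 reads over 48 input reads in neurons, against 1400 bp and 58 reads over 6 in NSCs. Per kb the reads were 36.8 and 41.4, and the authors' fold over input was 2.90 in neurons and 9.90 in NSCs. By these measures the wider neuronal peak was the less enriched. The neuronal peak reached as far into the gene as the NSC H3K27me3 domain had. Stmn3, a stathmin that regulates microtubules, lay in a domain of 6600 bp on chromosome 2 (181045600 to 181052199) with 140 reads over 68. At its start, neurons alone had an H3K4me3 peak, 1200 bp wide with 37 reads over 9, while NSCs had none within 4595 bp.

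At both transcription factors of cortical neurons, the NSC H3K4me3 peak held more reads than the neuronal one, as at most start sites in these libraries: neuronal reads were higher at 22.2% of the 27 and at 0.674% of all 11424. Bcl11b, a zinc-finger factor of deep-layer projection neurons, had a start site in a domain of 10400 bp on chromosome 12 (109234000 to 109244399) with 187 reads over 77. Its H3K4me3 peak was 2000 bp with 63 reads in neurons and 2200 bp with 177 reads in NSCs. Along its gene body Bcl11b held 3 NSC-only domains, counting the one at its start, and 1 shared domain. Cux2, a homeobox factor of upper-layer neurons, lay at the edge of a domain of 5200 bp on chromosome 5 (122495000 to 122500199) with 74 reads over 34, and a neuronal H3K27me3 peak began 1801 bp away. Its H3K4me3 peak held 40 reads in neurons and 192 in NSCs, and 1 shared domain overlapped its gene body.

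Genes of axon guidance and synapses in the domains differed in neuronal H3K4me3. Nrp2 and Erbb4, which shares its peaks with the start of an unnamed gene (ENSMUSG00000087514), had the widest neuronal peaks of the 27 start sites marked in both. Nrp2, a semaphorin receptor, lay in a domain of 9400 bp on chromosome 1 with 190 reads over 103. It had a peak of 6200 bp with 247 reads in neurons, against 1600 bp with 254 reads in NSCs. The authors' fold over input of these peaks was 3.19 in neurons and 10.4 in NSCs. Erbb4, the neuregulin receptor, had 5000 bp with 376 reads in neurons and 4000 bp with 349 reads in NSCs. Its domain, on chromosome 1 from 69148400 to 69166599, was one of 2 members at the greatest width, 18200 bp, with 421 reads over 247. Slitrk1, a synaptic adhesion protein, had 3600 bp with 128 reads in neurons and 1800 bp with 89 reads in NSCs. March8, a ubiquitin ligase outside these groups, was named after its values were seen. It had 4200 bp with 183 reads in neurons and 2200 bp with 271 reads in NSCs. The fold in neurons and NSCs was 6.55 and 6.38 at Erbb4, 4.24 and 3.96 at Slitrk1, and 2.71 and 9.57 at March8. The start of Shank1, a scaffold of the postsynaptic density, differed from all of these: it had an NSC peak of 1400 bp with 89 reads and no neuronal peak within 4624 bp. Shank1 shares its domain of 7800 bp, with 133 reads over 51, with the start of Clec11a, a secreted growth factor. A neuronal H3K27me3 peak began 801 bp from that domain, and 3 shared domains overlapped the gene body of Shank1.

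**Figure D4:**
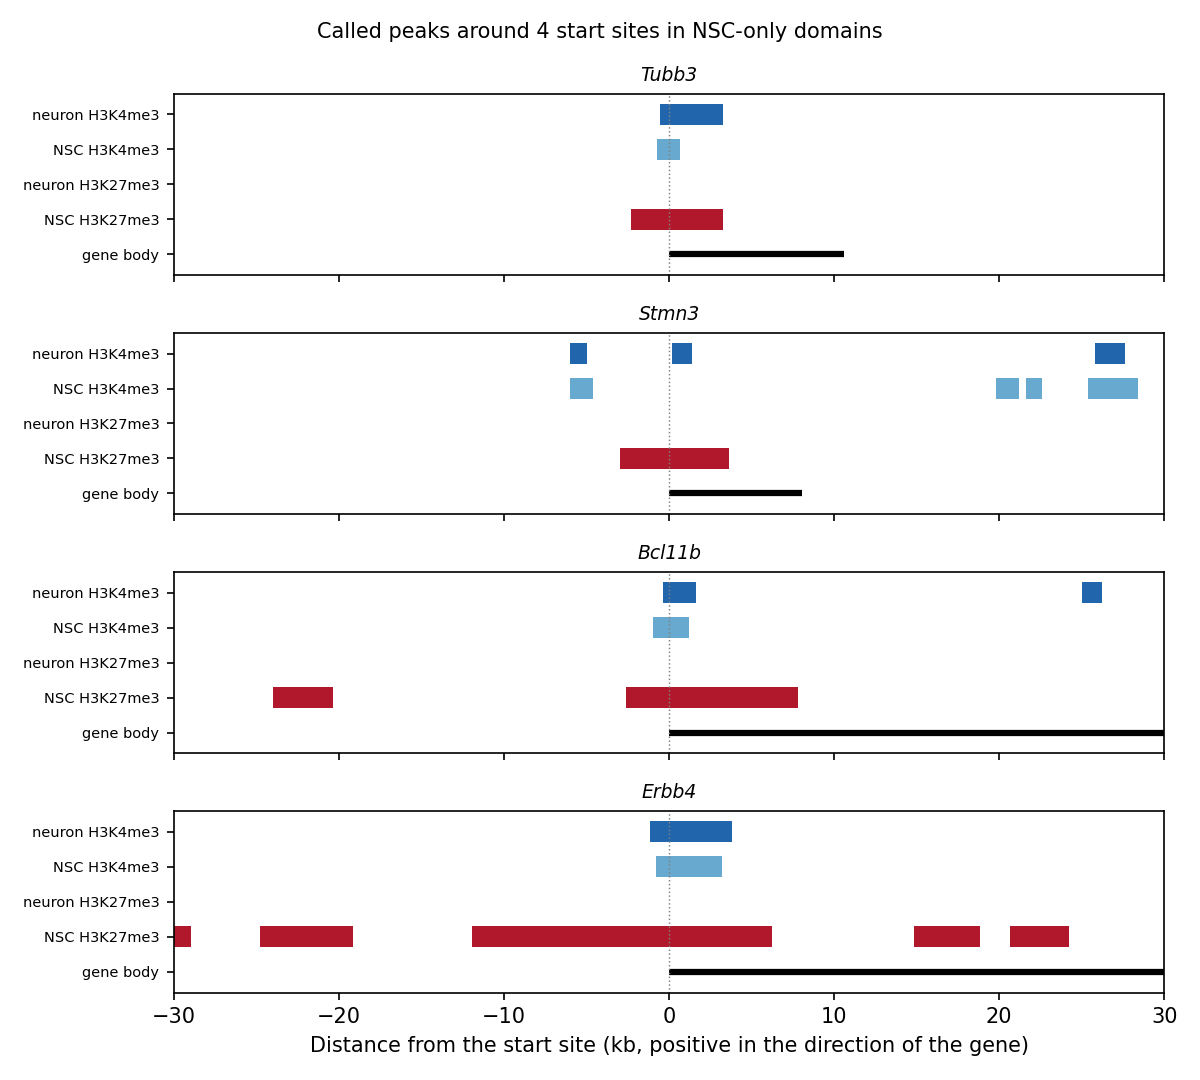
Called peaks within 30 kb of the start sites of Tubb3, Stmn3, Bcl11b and Erbb4 (horizontal axis, kb, positive along the gene); rows from top to bottom are neuron H3K4me3, NSC H3K4me3, neuron H3K27me3, NSC H3K27me3 and the gene body. The row of neuron H3K27me3 is empty in all 4 windows, and the start of Stmn3 had H3K4me3 in neurons alone.

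Some of the named genes with the highest ratios were developmental or metabolic. Helt, a basic helix-loop-helix factor of midbrain GABAergic neurons, lay in the named gene's domain of highest ratio, 7600 bp on chromosome 8 (47375800 to 47383399) with 242 reads over 58. Its H3K4me3 peak had 52 reads over 26 input reads in neurons and 62 over 12 in NSCs. The authors' fold over input was 1.99 and 5.29 in that order. Gpr50, a melatonin receptor relative on chromosome X, had 77 reads over 22 and H3K4me3 in NSCs alone, with 47 reads. T (brachyury), the mesoderm factor, had 101 reads over 29 and H3K4me3 in NSCs alone, with 35 reads at 89 bp from the start. Slc38a1, a neutral amino acid transporter, Slc44a5, a choline transporter-like protein, and Atp7b, a copper transporter, had ratios of 3.22, 3.15 and 3.07 and H3K4me3 in both. Their neuronal H3K4me3 peaks held 104, 42 and 98 reads, against 283, 102 and 292 in NSCs. Col8a2, a collagen chain, had 111 reads over 37 and H3K4me3 in NSCs alone. Fam131b had 133 over 45 with H3K4me3 in both, while Cyp2s1, a cytochrome P450, had 170 over 57 and Ifna14 had 82 over 28, both without H3K4me3.

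H3K4me3 in neurons alone was found at 4 start sites. These were Stmn3, Kcne3, an accessory subunit of potassium channels, with 24 reads over 1 input read, and unnamed genes ENSMUSG00000086296 with 44 reads and ENSMUSG00000086182 with 41. The 13 start sites with H3K4me3 in NSCs alone were those of Clec11a, C2cd4b, Shank1, Hpse, 9130008F23Rik, Gpr50, T, Col8a2, Mtmr7, Ccdc65, Kcnk6 and unnamed genes ENSMUSG00000087386 and ENSMUSG00000073154. Their NSC H3K4me3 peaks were small, with a median of 1000 bp and 50 reads and a range of 26 to 192 reads. The highest, 192 reads, was the peak that also marks Cux2. Hpse, the heparan sulfate-cleaving heparanase, had 52 reads and Kcnk6, a background potassium channel, had 26.

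Of 19 gene lists with 1029 symbols, 865 symbols were in the tables. Start sites of 12 of them, or 1.39%, lay in NSC-only domains, against 0.564% of all start sites, and 184, or 21.3%, lay in shared domains, against 8.21% of all. The 12 were Stmn3 and Tubb3 of 34 genes of the neuronal cytoskeleton and RNA binding, Shank1 and Slitrk1 of 51 synaptic proteins, Bcl11b and Cux2 of 70 neuronal lineage transcription factors, Erbb4 and Nrp2 of 91 genes of axon guidance and adhesion, T and Cdx1 of 62 mesoderm, endoderm and neural crest factors, Csf1r of 18 immune and blood genes, and Col8a2 of 49 collagens, laminins and integrins. Cdx1, a caudal homeobox factor, had 92 reads over 55 and touched a neuronal peak end to end, and Csf1r, the receptor of microglia and macrophages, had 79 over 44, both without H3K4me3. Each list thus had at most 2 members in NSC-only domains. The lists with no start site there were ion channels (0 of 75), transmitter receptors and transporters (0 of 80), brain patterning factors (0 of 56), Hox genes (0 of 38), secreted morphogens and growth factors (0 of 69), neural stem cell genes (0 of 40), astrocyte genes (0 of 24), oligodendrocyte genes (0 of 10), cell cycle genes (0 of 38), pluripotency and germline genes (0 of 17), Polycomb subunit genes (0 of 29) and housekeeping genes (0 of 23). Shared domains held 36 of the 69 morphogens and growth factors, 23 of the 80 transmitter receptors and transporters and 18 of the 75 ion channels. Of the 38 Hox starts, 32 lay in an NSC H3K27me3 peak, but in peaks outside the width or ratio limits. Neither NSC-only nor shared domains could hold these starts. The 0 in each kind of domain therefore does not tell whether neurons had H3K27me3 there.

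Far from start sites, many domains lay along long genes. A gene body overlapped 551 domains, or 34.3%, against 47.2% of shared domains and 38.5% of all NSC peaks, and 407 (25.4%) lay wholly inside a gene without holding a start site, against 25.5% of shared domains. In all, 455 genes overlapped at least 1 NSC-only domain, 85 at least 2 and 29 at least 3. These genes had a median length of 84.8 kb, against 15.6 kb for all genes, and longer genes offer more room for a domain. Megf11, a cell-surface protein with EGF repeats, held 6 over 323.6 kb, with 1022 reads over 524 in total. Dscam and Dscaml1, adhesion proteins of neuronal self-avoidance, held 5 each, with 793 reads over 458 and 712 over 326. Pgcp and Prkg1, the cGMP-dependent protein kinase, also held 5 each. Syn3, a synapsin of synaptic vesicles, Kalrn, a protein of dendritic spines, and Eya4, a transcriptional coactivator, held 4 each. Dscaml1, Eya4 and Syn3 held no shared domain, while Kalrn held 7 and Prkg1 held 5.

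One of the domains inside Dscaml1 held the start of an unnamed gene (ENSMUSG00000086990) on chromosome 9 (45236800 to 45242599), with 165 reads over 37, the highest ratio among autosomal domains with a start site. That gene runs on the strand opposite to Dscaml1, whose body begins at 45235294, so the start of Dscaml1 also lay close to this domain. The mark does not tell strands apart. H3K4me3 at the start of the unnamed gene held 116 reads in neurons and 38 in NSCs. Ak5, an adenylate kinase, held the domain with the most reads, 486 over 139 across 15800 bp on chromosome 3 (152149800 to 152165599), with H3K4me3 in NSCs but not in neurons and the nearest start site 91363 bp away. The other member of 18200 bp lay on chromosome 13, with 336 reads over 174 and the start of Slc28a3 73362 bp away. The next in width lay in Csmd1 on chromosome 8 and near Ms4a15 on chromosome 19, at 18000 bp each, and in Camta1 on chromosome 4, at 17800 bp. Of these 5 widest, the Erbb4 and Camta1 domains overlapped H3K4me3 in both cell types and the others in neither.

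H3K4me3 in domains without a listed start site was called in 88 domains in NSCs and in 24 in neurons. The NSC H3K4me3 list was also the longer, with 30416 peaks against 14846. Of all NSC H3K27me3 peaks, with or without a start site, 11.0% overlapped H3K4me3 in NSCs and 6.18% in neurons. The strongest peak per domain had a median of 49 reads and 1400 bp in the 24 domains with neuronal H3K4me3, and 42.5 reads and 1600 bp in the 88 with NSC H3K4me3. The authors' fold over input had medians of 4.31 in neurons and 3.53 in NSCs, against 4.24 and 10.4 at the 27 start sites marked in both. By fold, then, the NSC peaks were the weaker here and the neuronal ones were not. The 24 and the 88 domains were not matched for distance to a start site. A larger part of the 24 lay within 1000 bp of one, so these medians do not compare the cell types at distant sites. In size, peaks of both cell types were the smaller here. At the 27 start sites the medians were 76 reads and 2200 bp in neurons and 192 reads and 1800 bp in NSCs. Several of these domains ended close to a start site. The start of Mapt, the Tau gene whose promoter drove the reporter used for sorting, lay 96 bp outside a domain of 5200 bp on chromosome 11 (104092800 to 104097999) with 145 reads over 50, which overlapped an H3K4me3 peak of 2800 bp in each cell type, with 116 reads in neurons and 278 in NSCs. Others were Trim67, a tripartite-motif protein, 408 bp from a domain with 176 reads over 59, and Ryr3, an intracellular calcium release channel, 254 bp from one with 100 over 49. These 3 genes were named after their values were seen.

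The NSC-only share differed by chromosome in 2 places. On chromosome X, 43 of 65 domains within the limits were NSC-only, or 66.2% (53.4 to 77.4). On chromosome 1 the count was 27 of 595, or 4.54% (3.01 to 6.53). The other 18 autosomes ranged from 12.7% on chromosome 6 to 25.2% on chromosome 16, with a median of 18.2%. Input moved with both: within the limits, NSC input stood at 4.61 reads per kb on X and 12.1 on chromosome 1, against a median of 8.53 on the other autosomes, and its part in the result was not tested. By the mirrored rule, X had 6 neuron-only domains of 9, and chromosome 1 had 174 of 1286 (13.5%).

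**Figure D5:**
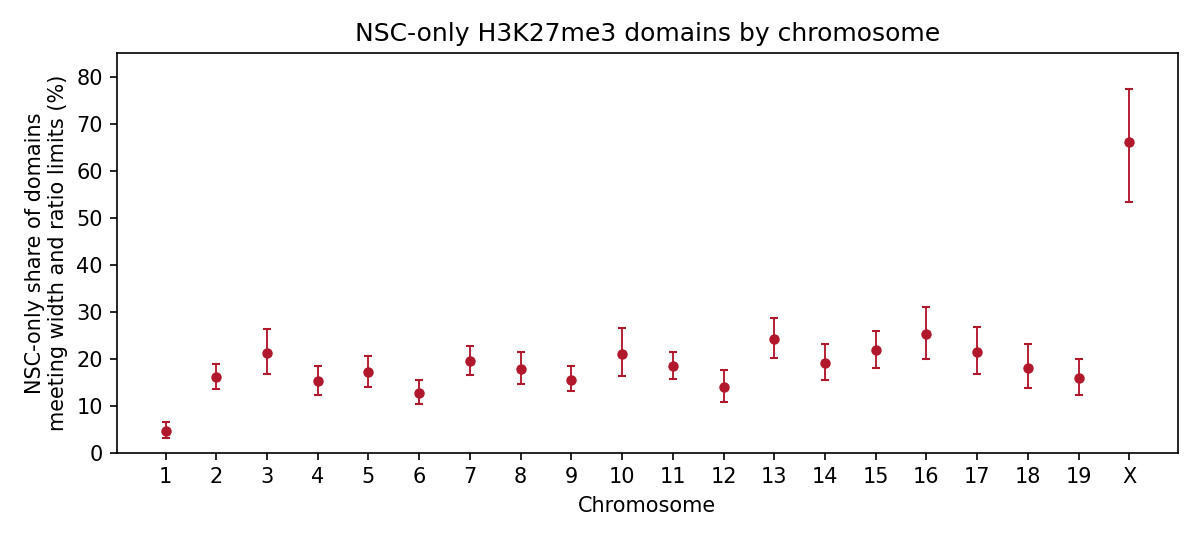
NSC-only share (%) of the NSC H3K27me3 domains within the width and ratio limits on each chromosome, with exact 95% binomial intervals. Chromosome X stood at 66.2% and chromosome 1 at 4.54%, outside the range of 12.7% to 25.2% of the other autosomes.

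Ratios were high across X: its 65 domains within the limits, NSC-only or shared, had a median ratio of 3.49. Medians of the autosomes ran from 1.74 on chromosome 1 to 2.05 on chromosome 19. The 43 NSC-only domains on X included those of highest ratio. An unnamed gene (ENSMUSG00000063018) of 33.3 kb held 3 of them, with ratios of 7.81, 6.58 and 5.37 and 497 reads over 81 in total, all at least 1166001 bp from a neuronal H3K27me3 peak and without H3K4me3. Dcx, the microtubule-binding doublecortin of migrating neurons, held 3 domains in its body with 183 reads over 45, 139 over 34 and 109 over 35. The nearest neuronal H3K27me3 peak lay at least 3190601 bp from each, and the start of Dcx, outside the domains, had H3K4me3 in neurons alone. Domains near Tbx22, a T-box factor, and Fam46d were the farthest from neuronal H3K27me3, at 4128801 and 3989801 bp. Chromosome X held 105 neuronal and 135 NSC H3K27me3 peaks in all.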

How the data were processed

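Chromatin immunoprecipitation was analysed from 4 libraries, H3K27me3 and H3K4me3 in neurons and in NSCs, each with 1 input. Per the submitters' processing notes, the tools were FastQC, Bowtie, SAMtools and SICER on mm9; their versions and settings were not given in the sources used here. Peaks were called per library. For each peak the authors deposited its read count and input count, a fold ratio over input, and a p-value with its FDR. That fold scales the count ratio by 1 constant in each library, so the ratio limit of 1.5 equals a deposited fold of 2.10 in NSC H3K27me3 and 1.58 in neuron H3K27me3. All listed peaks had an FDR below 0.001. The authors' gene tables, which pair genes with a peak, supplied start sites as other deposited columns; their score column was not used.

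Widths were counted as end minus start plus 1, distances as bp between nearest bounds (1 for touching peaks), and coordinates are printed as in the files. Shares have exact Clopper-Pearson 95% intervals, which cover counting error only. With 1 library per cell type and antibody no test was made. The absolute depth of the libraries is unknown, since only reads inside peaks are given. The members and gene lists were chosen with earlier results of these data known. Genes were named by these rules: the 10 symbols of highest ratio with a start site inside, every listed gene with a start site inside, genes of the 5 widest domains, start sites with H3K4me3 in 1 cell type alone, and members beside each limit; others were chosen after their values were seen. Of the listed symbols, 18 were matched through another symbol in RefSeq's GRCm38.p6 table. Distances and overlaps were checked on simulated data. Software was scipy 1.17.1, numpy 2.4.6, matplotlib 3.10.9 and pandas 2.3.3 under Python 3.11.15. Alternatives changed the ratio, width, FDR, overlap and start-site rules.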

Additional observations from a re-analysis of the deposited data

How the results depend on the processing

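No paired analysis was possible because each cell type and antibody had 1 library, and no replicate could be left out. Of 178 values recomputed under 17 settings, 136 stayed within 1.5 times a count or inside the interval of a share or median, and 42 did not. Each cause was not tested, apart from the change in members that a setting makes by construction.

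The number of NSC-only domains was 463 at a ratio of 2.0 or more, 414 with NSC peaks at FDR under 1e-20, 111 from 10000 bp in width, 5807 when only neuronal peaks at FDR under 1e-20 counted as overlapping, and 2704 at a deposited fold of 1.5. In that order, 12.1%, 15.2%, 12.6%, 9.76% and 4.84% of the domains held a start site, and the median distance to one was 25386, 21106, 32732, 32283 and 46758.5 bp. The share holding a start site was 8.29% within 1000 bp and 4.55% with named genes alone, for which the median distance was 58644 bp. With no neuronal peak within 5000 bp, the medians were 45174 bp to a start site and 22801 bp to a neuronal peak. The median to a neuronal peak was 59401 bp when weaker neuronal peaks were ignored and 9601 bp from 10000 bp in width.

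Overlap with neuronal H3K4me3 was 6.91% at the ratio of 2.0, 8.21% at the strict NSC FDR, 6.31% for the wide domains, 4.70% with weaker neuronal peaks ignored and 1.93% with H3K4me3 peaks at FDR under 1e-20. Overlap with NSC H3K4me3 was 13.0%, 16.7% and 20.7% in the first 3 of these settings, 3.18% in the last, and 3.93% with equal numbers of H3K4me3 peaks. Beside that 3.93%, the overlap with neuronal H3K4me3 was 3.43%. At the start sites, neuronal H3K4me3 was at 19.8% with strict H3K4me3 peaks and also by the gene tables, which gave 28.3% in NSCs and 50% lost of those marked in NSCs. The wide domains held 15 start sites, of which 6.67% had H3K4me3 in NSCs alone and 0 in neurons alone, and the neuronal peak was wider at 75% of 4 marked in both. Listed genes with a start site inside numbered 7 at the ratio of 2.0, 57 with weaker neuronal peaks ignored and 2 in wide domains. The deposited fold, end minus start as width, and the settings for listed genes, wider peaks and the share lost were added after seeing the data.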
